A study of Mus musculus with 6 samples.

Results

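The genes described here make nitric oxide, supply or withdraw what its synthesis needs, and receive it: the synthases Nos1, Nos2 and Nos3, the cofactor enzyme Gch1, the arginases Arg1 and Arg2, the dimethylarginine hydrolases Ddah1 and Ddah2, and the soluble guanylate cyclase subunits Gucy1a1 and Gucy1b1. They were taken by gene name from a table of 55401 genes, in which each of the 10 had 1 row, and 9 of them passed the low-count filter that left 16759 genes. Hearts of C57BL/6 mice aged 6 to 8 weeks were compared, 3 from mice given angiotensin II (Ang II) and 3 from control mice, with 1 poly(A) RNA-seq library per heart. Ang II is a peptide hormone that constricts vessels, raises blood pressure and enlarges the heart. Its dose, route and duration are not given in the labels, and the control mice are labelled only as control. Whole hearts hold many cell types, so a level here is a mean over cardiomyocytes, vessels, fibroblasts and blood left in the tissue. Of the cell type marker lists used here, the cardiomyocyte list had the highest sum in every library. The summed level of its 8 markers ran from 36488 to 46298 CPM in Ang II hearts and from 35436 to 40436 CPM in control hearts. CPM is the count scaled to a common library size after trimmed-mean (TMM) normalization. The extraction text speaks of adipose tissue, but adipocyte markers summed to at most 1.14 CPM in Ang II hearts and 3.29 CPM in control hearts.

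Nitric oxide is made from arginine by synthases that need tetrahydrobiopterin as a cofactor, and the first and limiting step of that cofactor's synthesis is catalysed by the product of Gch1. Arginases draw on the same arginine, and asymmetric dimethylarginine, which blocks the synthases, is broken down by the Ddah enzymes. In vessels and heart the gas binds the haem of soluble guanylate cyclase, a dimer of an alpha and a beta subunit, which then makes cGMP and relaxes smooth muscle. Nos3 is the endothelial synthase, Nos1 the neuronal form that cardiomyocytes also carry, and Nos2 the inducible form known from macrophages and inflamed tissue.

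Libraries held 51202916 to 63564869 estimated counts in Ang II hearts and 53583726 to 57844780 in control hearts. Mitochondrially encoded genes took 35.8% to 37.4% of them in Ang II hearts and 37.3% to 47.6% in control hearts. Ang II replicate 1 stood apart from the rest: its log2 CPM correlated with those of the other libraries at a mean r of 0.906, against 0.939 to 0.945 for each of the other 5. It also differed from control hearts by transcript length. Among the 4190 tested genes of the shortest quartile, its median log2 CPM lay 0.41 above the control mean, and among the 4190 of the longest quartile it lay 0.23 below (-0.23). Ang II replicates 2 and 3 lay within 0.045 of it in all quartiles, so log2 changes and medians that replicate 1 moves by over 1.5 times are also given without it.

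The 10 genes were chosen by name, as a pathway, with the counts and FPKM of this Ang II against control contrast known. Their fold changes and p-values therefore describe where each gene stood and are no independent evidence. By edgeR (quasi-likelihood, p adjusted over all genes by Benjamini-Hochberg, threshold 0.05), 0 of the 9 tested genes passed, beside 0.0358% of all genes tested, all of those higher. DESeq2 called 1 of the 10, Nos2, lower in Ang II hearts, beside 0.956% of its genes in either direction and 0.407% lower. Unadjusted edgeR p-values under 0.05 were found for 2 genes, Nos2 and Nos3, both lower, beside 7.51% of all genes in either direction, 3.57% higher and 3.94% lower. In CPM the 2 groups did not overlap for 3 genes, Nos2, Nos3 and Gucy1b1, all lower in Ang II hearts. Beside them, 17.2% of all genes did not overlap, 7.97% higher and 9.21% lower. In FPKM only Nos2 of the 10 did not overlap, lower, beside 4.01% of all genes lower and 7.76% higher. Without Ang II replicate 1, edgeR called 1 of the 9, Nos2, beside 0.73% of all genes. The unadjusted p was then under 0.05 for 3, Nos2, Nos3 and Gucy1b1, beside 15.4% of all genes, and the same 3 were lower without overlap, beside 17.6%. The median log2 change of the 9 was 0.05, next to 0.01 for all genes tested, and without Ang II replicate 1 it was -0.18, next to -0.01.

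**Figure D1:**
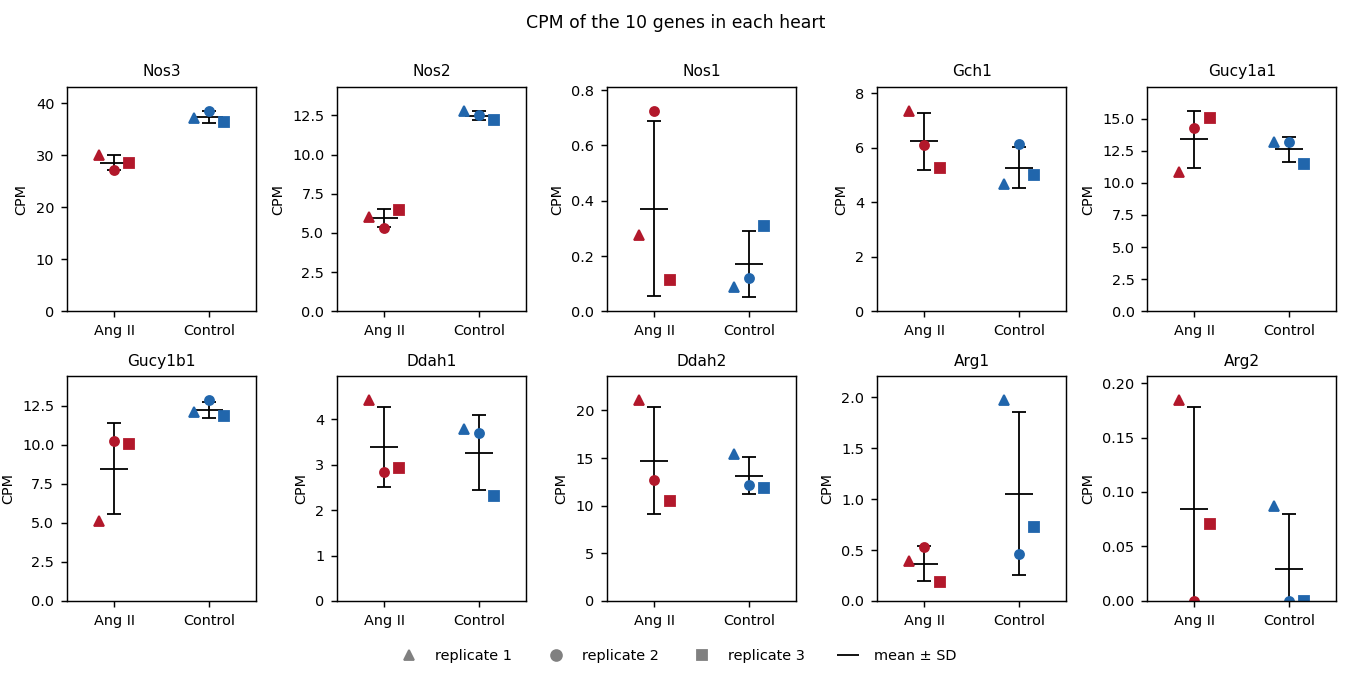
CPM (vertical axis, each from 0) of the 10 genes in each heart, with Ang II hearts on the left and control hearts on the right of each panel. Symbols mark the replicate, the dash the mean and the bar its SD. Nos3, Nos2 and Gucy1b1 are lower in all 3 Ang II hearts than in any control heart, and Gucy1b1 is lowest in Ang II replicate 1.

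Nos2, the inducible synthase, had the smallest p of the set. It stood at 6.00, 5.33 and 6.48 CPM in Ang II hearts 1, 2 and 3, against 12.8, 12.5 and 12.2 CPM in control hearts. The groups were far apart, and the hearts within each lay close together. The estimated counts behind these values were 261, 375 and 461 in Ang II libraries and 584, 833 and 670 in control libraries. The log2 change was -1.07 (SE 0.15), which is 0.476 of the control level, at an adjusted p of 0.139 by edgeR over all genes and 27th by p among the 16759. Without Ang II replicate 1 the log2 change was -1.08 (SE 0.13) and the adjusted p 0.0440 by edgeR, and with all 6 libraries DESeq2 gave an adjusted p of 0.000274. On log2(FPKM + 0.5), limma gave -0.80 with an adjusted p of 0.658. In the authors' FPKM, which carry no such scaling, the groups also did not overlap, at 1.04, 1.22 and 1.51 in Ang II hearts and 2.12, 2.97 and 2.60 in control hearts. The gene lies on GRCm38 at chr11:78920787-78960254, plus strand.

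Nos3, the endothelial synthase and the most abundant of the 3, stood at 30.0, 27.2 and 28.5 CPM in Ang II hearts, against 37.1, 38.5 and 36.3 CPM in control hearts. The groups did not overlap, and the gap was smaller than for Nos2. The log2 change was -0.38 (SE 0.13; adjusted p = 0.558 by edgeR), and without Ang II replicate 1 it was -0.42 (SE 0.09; adjusted p = 0.117 by edgeR). In FPKM the groups overlapped, at 5.62, 6.69 and 7.13 in Ang II hearts and 6.61, 9.83 and 8.32 in control hearts, so the separation rests on scaling the libraries. Nos3 (GRCm38 chr5:24364810-24384474, plus strand) shares 294 of its 4132 exon bases with Atg9b and 1040 with Gm15587, both on the other strand. Strandedness is not given in the labels, but those genes reached no more than 1.79 and 1.02 CPM in any library.

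Nos1, the neuronal synthase, was near the limit of detection, with 12, 51 and 8 counts in Ang II libraries and 4, 8 and 17 counts in control libraries. Those are 0.276, 0.725 and 0.112 CPM in Ang II hearts and 0.0875, 0.1201 and 0.309 CPM in control hearts. The groups overlapped and 1 Ang II heart, replicate 2, set most of the log2 change of 1.10 (SE 0.89; adjusted p = 0.791 by edgeR), which was 0.15 without it. Markers of neurons and glia were likewise sparse, with Chat and Th at 0 counts in all 6 libraries and a summed level of 8.87 to 10.2 CPM in Ang II hearts and 8.03 to 10.1 CPM in control hearts.

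**Figure D2:**
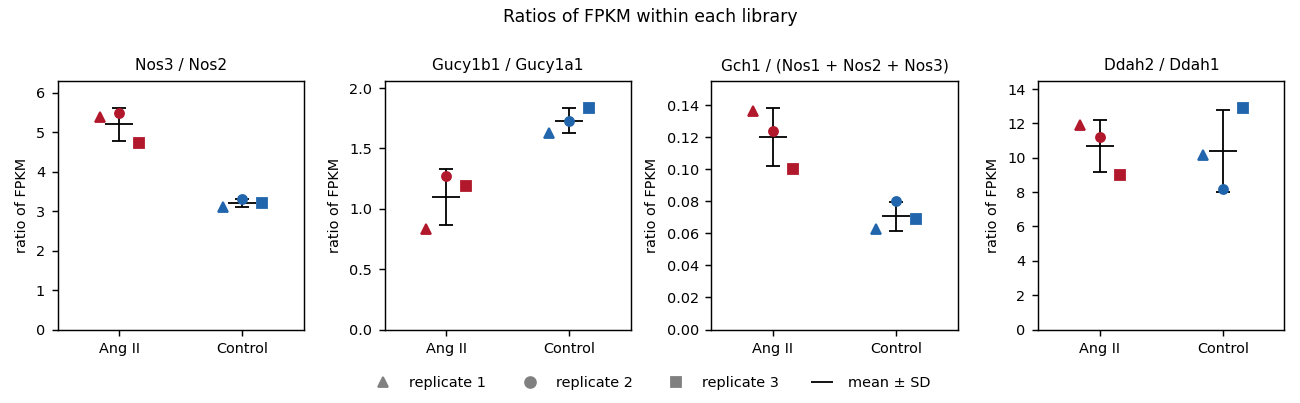
Ratios of FPKM within each library (vertical axes, each from 0), with Ang II hearts left of control hearts, symbols for replicates and mean ± SD. The ratios of Nos3 to Nos2 and of Gch1 to the 3 synthases are higher in all Ang II hearts, the ratio of Gucy1b1 to Gucy1a1 is lower in all of them, and the ratio of Ddah2 to Ddah1 overlaps.

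Ratios of genes within a library do not depend on how libraries are scaled. Those given here were chosen after the values were seen and are not tested. Nos3 FPKM exceeded Nos2 FPKM by 5.38, 5.49 and 4.72 times in Ang II hearts, against 3.12, 3.31 and 3.21 times in control hearts. Nos2 accordingly made up 16.1% ± 1.17 of the summed FPKM of the 3 synthases in Ang II hearts and 23.7% ± 0.554 in control hearts (SD, n = 3 each). The synthase sum itself was 7.77 ± 0.998 FPKM in Ang II hearts and 10.8 ± 2.04 FPKM in control hearts. By library it was 6.69, 7.97 and 8.65 FPKM in Ang II hearts and 8.74, 12.8 and 10.9 FPKM in control hearts. The groups thus did not overlap but nearly met, and this sum, unlike the ratios, depends on how libraries are scaled.

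Endothelial and macrophage markers bear on these 2 synthases. Of 12 endothelial markers 9 had a log2 change below 0, 6 lay lower in Ang II hearts without overlap, 0 passed over all genes by edgeR, where 4 had an unadjusted p under 0.05, and none was at 0 counts. Their sum was 1007, 773 and 781 CPM in Ang II hearts and ran from 1018 to 1075 CPM in control hearts. Ang II replicate 1 was the highest Ang II heart, but its markers went both ways. Egfl7 stood at 180, 71.4 and 75.8 CPM in Ang II hearts, and Cdh5 at 108, 139 and 146 CPM. Nos3 equalled 2.98%, 3.52% and 3.64% of the endothelial sum in Ang II hearts, against 3.45%, 3.78% and 3.52% in control hearts. The groups thus overlapped once Nos3 was read relative to these markers. In bulk tissue, fewer cells of a type and less RNA per cell cannot be told apart. Of 10 macrophage and monocyte markers 7 had a log2 change below 0 and 0 passed over all genes by edgeR, where 1 had an unadjusted p under 0.05. This was Adgre1, lower without overlap at 4.83, 1.95 and 3.19 CPM in Ang II hearts and 5.49, 5.98 and 6.76 CPM in control hearts. The sum of the 10 was 333, 165 and 177 CPM in Ang II hearts and 203, 233 and 216 CPM in control hearts, with Ang II replicate 1 highest. Its largest part was Lyz2, at 172, 80.0 and 87.5 CPM in Ang II hearts and 106, 118 and 113 CPM in control hearts. Nos2 equalled 1.80%, 3.23% and 3.65% of the macrophage sum in Ang II hearts, against 6.29%, 5.38% and 5.63% in control hearts, and stayed lower in all Ang II hearts on that scale. Relative to the endothelial sum it was 0.596%, 0.690% and 0.829% in Ang II hearts and 1.19%, 1.23% and 1.18% in control hearts. Nos2 was not set against single markers, and which cells carried its transcripts was not tested.

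**Figure D3:**
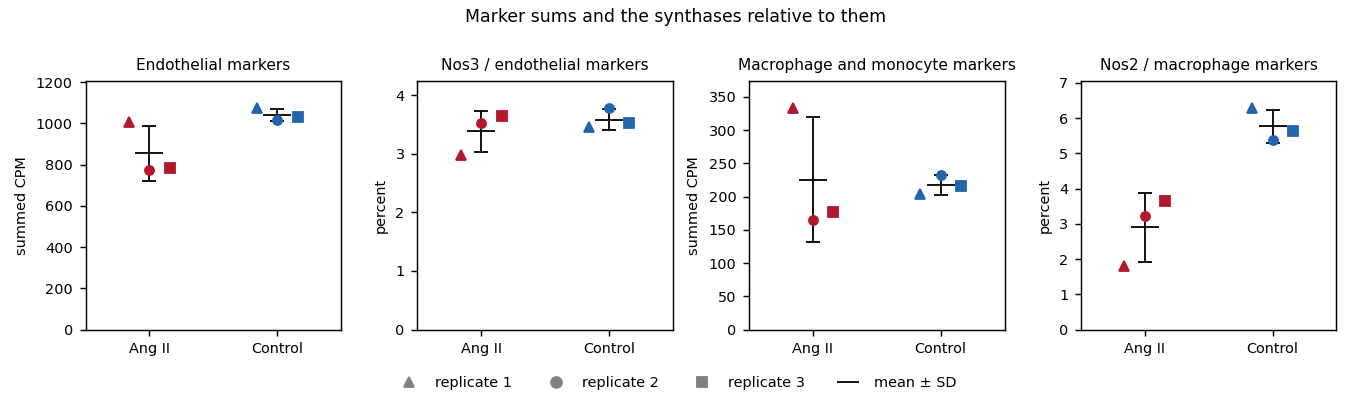
Summed CPM of 12 endothelial and 10 macrophage and monocyte markers, and the CPM of Nos3 and Nos2 as a percent of those sums (vertical axes, each from 0), with Ang II hearts left of control hearts, symbols for replicates and mean ± SD. Nos3 overlaps between groups relative to the endothelial sum, and Nos2 does not overlap relative to the macrophage sum.

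Gch1, whose product makes the synthase cofactor, stood at 7.36, 6.10 and 5.26 CPM in Ang II hearts, against 4.68, 6.13 and 4.999 CPM in control hearts. The groups overlapped, and the log2 change was 0.24 (SE 0.20; adjusted p = 0.802 by edgeR) and 0.11 (SE 0.18) without Ang II replicate 1. Set against the synthase sum, Gch1 FPKM came to 0.136, 0.124 and 0.1004 in Ang II hearts and 0.0629, 0.0804 and 0.0689 in control hearts, groups that did not overlap. Gch1 FPKM alone averaged 0.923 ± 0.0610 in Ang II hearts and 0.778 ± 0.241 in control hearts (SD, n = 3 each), with overlapping groups. Of 7 other genes of tetrahydrobiopterin synthesis and recycling, all tested, 0 passed in either direction by edgeR, and at an unadjusted p under 0.05 there was 1 higher and 1 lower. The higher was Pts, the second enzyme of the pathway, at 27.2 ± 3.08 CPM in Ang II hearts and 20.3 ± 2.95 CPM in control hearts (SD, n = 3 each). The lower was Pcbd1, a recycling enzyme, at 0.383 ± 0.0776 CPM in Ang II hearts and 0.915 ± 0.0053 CPM in control hearts (SD, n = 3 each). Their log2 changes were 0.42 (SE 0.17; adjusted p = 0.658 by edgeR) and -1.25 (SE 0.36; adjusted p = 0.511 by edgeR). Pcbd1 ran from 0.295 to 0.919 CPM over the libraries, so few counts lie behind its means and SDs.

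Arginases were scarce in these hearts. Arg1, the cytosolic arginase known from liver and from some macrophages, had 17, 37 and 13 counts in Ang II libraries, against 90, 31 and 40 in control libraries. Those are 0.391, 0.526 and 0.183 CPM in Ang II hearts and 1.97, 0.465 and 0.727 CPM in control hearts. The groups overlapped, with control replicate 1 far above the other 5 hearts. The log2 change was -1.51 (SE 0.68; adjusted p = 0.676 by edgeR) and -0.70 without control replicate 1. That heart was also highest in red blood cell and neutrophil markers. The summed red blood cell level was 593, 444 and 461 CPM in Ang II hearts and 2041, 803 and 1349 CPM in control hearts, with all 6 markers lower without overlap and 0 of them called by edgeR, where the unadjusted p was under 0.05 for 6. DESeq2 called 5. The neutrophil sum was 1.61, 3.11 and 2.95 CPM in Ang II hearts and 10.99, 4.97 and 3.27 CPM in control hearts. The part of blood cells in the Arg1 values was not tested.

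Arg2, the mitochondrial arginase, was at or under 8 counts in every library and was not tested. It had 8, 0 and 5 counts in Ang II libraries and 4, 0 and 0 in control libraries. A count of 0 allows up to 3 counts, or 0.0427 CPM in Ang II replicate 2 and 0.0451 and 0.0545 CPM in control replicates 2 and 3, for counting error only. Arg2 also shares 285 of its 1428 exon bases with Vti1b on the other strand, which stood at 51.2 to 93.3 CPM, so even these few counts are uncertain.

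Among 12 other genes of arginine supply and use, 11 were tested, 7 had a log2 change below 0 and 4 above, and 0 passed in either direction by edgeR. The median log2 change was -0.28, next to 0.01 for all genes. Slc7a1, the cationic transporter that brings arginine into cells, had the smallest p, at 11.5, 10.5 and 11.8 CPM in Ang II hearts and 12.8, 24.7 and 17.2 CPM in control hearts. All Ang II hearts lay below all control hearts, though control replicate 1 was close (log2 change -0.70, SE 0.25; adjusted p = 0.593 by edgeR). Asl, which releases arginine from argininosuccinate, came next with a log2 change of -0.49 (SE 0.24; adjusted p = 0.695 by edgeR) and overlapping groups.

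The Ddah genes showed no separation between groups. Ddah2 stood at 21.05, 12.7 and 10.51 CPM in Ang II hearts, against 15.4, 12.1 and 11.9 CPM in control hearts. Ddah1 stood at 4.42, 2.83 and 2.92 CPM in Ang II hearts, against 3.79, 3.71 and 2.31 CPM in control hearts. For both genes Ang II replicate 1 was the highest of all 6 hearts, and both log2 changes turned sign without it. For Ddah2 the log2 change was 0.16 (SE 0.28; adjusted p = 0.900 by edgeR) and -0.18 (SE 0.16) without that library. For Ddah1 it was 0.05 (SE 0.29; adjusted p = 0.970 by edgeR) and -0.18 (SE 0.27) without it. The length implied by the deposited count and FPKM of Ddah2 is 1722 to 1748 bases, which puts it in the shortest quartile, the class that ran high in Ang II replicate 1. By the same measure Ddah1, at 4297 to 4370 bases, falls in quartile 3, where the median of that library lay below the control mean (-0.087). The part of length in either gene's values was not tested. Ddah2 made up 91.4% ± 1.19 of the summed Ddah FPKM in Ang II hearts and 91.0% ± 1.85 in control hearts (SD, n = 3 each). Of 7 genes that form or otherwise clear methylarginines, 6 were tested, 5 had a log2 change above 0, and 0 passed in either direction by edgeR. Prmt7 and Prmt5, both arginine methyltransferases, had the smallest p, with log2 changes of 0.39 (SE 0.24) and 0.21 (SE 0.14) and adjusted p of 0.740 and 0.756 by edgeR. Without Ang II replicate 1 the log2 change of Prmt7 was 0.11. Agxt2, another enzyme that clears dimethylarginine, was at 0 counts in all 6 libraries.

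**Figure D4:**
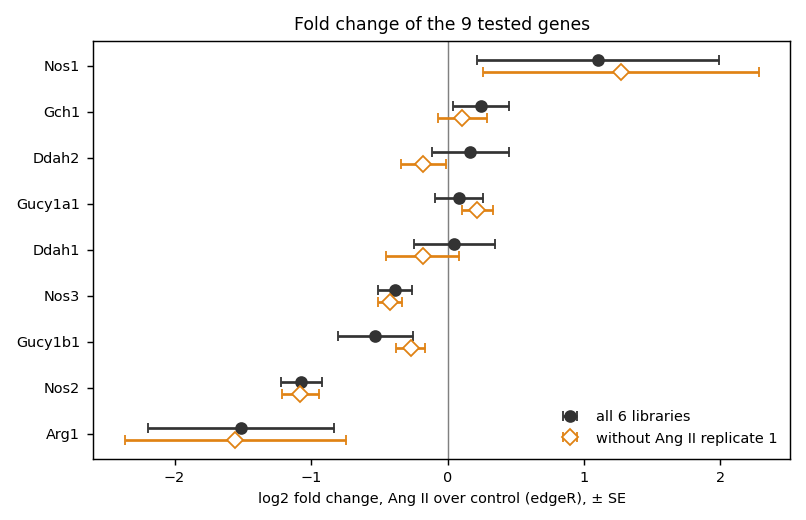
Log2 fold change of Ang II over control hearts (horizontal axis) with its SE for the 9 tested genes, with all 6 libraries (filled) and without Ang II replicate 1 (open). Nos2 and Nos3 stay near -1.07 and -0.38, Gucy1b1 comes closer to 0 without that library, and Ddah1 and Ddah2 lie on the other side of 0.

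The soluble guanylate cyclase genes lie next to each other on chromosome 3, on the same strand, with 17737 bases between them. Gucy1b1 encodes the beta subunit that holds the haem, and Gucy1a1 the alpha subunit that pairs with it. Windows from 250 bases before to 50 after a transcript start were taken from RefSeq (GRCm38.p6), which matched 6 of the 10 genes. They are shown for this pair because its FPKM ratio, chosen after the values were seen and not tested, did not overlap between groups. Whether any motif bears on that ratio was not tested. Capitals mark CCAAT and GGGCGG on either strand, motifs that 37.4% and 35.7% of 32851 such windows hold. The Gucy1b1 window (chr3:82074662-82074961, minus strand) holds CCAAT at 2 places and GGGCGG at 1, and the upstream Gucy1a1 window (chr3:82145601-82145900, minus strand) holds GGGCGG at 1 place and no CCAAT. Another Gucy1a1 window (chr3:82145024-82145323, minus strand) holds neither motif and is not shown.
Gucy1b1: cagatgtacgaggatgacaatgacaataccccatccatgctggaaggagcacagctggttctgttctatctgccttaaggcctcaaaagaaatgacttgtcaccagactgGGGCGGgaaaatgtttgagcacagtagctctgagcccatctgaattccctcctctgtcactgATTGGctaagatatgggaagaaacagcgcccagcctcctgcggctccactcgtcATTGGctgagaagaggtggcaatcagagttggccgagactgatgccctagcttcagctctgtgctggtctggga
Gucy1a1: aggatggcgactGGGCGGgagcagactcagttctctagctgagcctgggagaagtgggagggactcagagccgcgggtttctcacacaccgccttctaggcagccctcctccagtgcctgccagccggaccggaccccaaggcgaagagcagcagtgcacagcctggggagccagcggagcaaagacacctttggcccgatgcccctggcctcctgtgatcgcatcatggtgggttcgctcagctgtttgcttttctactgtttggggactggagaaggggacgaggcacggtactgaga
These matches are descriptions of the letters and not binding sites. A kappaB consensus, searched on both strands and found in 4.51% of windows, was in no window of this pair. The windows of Nos1 and Gch1 held 1 each.

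Gucy1b1 stood at 5.13, 10.2 and 10.1 CPM in Ang II hearts, against 12.1, 12.9 and 11.9 CPM in control hearts. All 3 Ang II hearts lay below all control hearts, and Ang II replicate 1 was lowest by far. In FPKM the groups overlapped, at 1.01, 2.64 and 2.66 in Ang II hearts and 2.26, 3.45 and 2.86 in control hearts. The separation of Gucy1b1 thus rests on scaling the libraries. The log2 change was -0.53 (SE 0.28; adjusted p = 0.708 by edgeR), and without that library it was -0.27 (SE 0.10; adjusted p = 0.303 by edgeR). Gucy1a1 stood at 10.8, 14.3 and 15.0 CPM in Ang II hearts, against 13.2, 13.2 and 11.5 CPM in control hearts, with overlapping groups. Its log2 change was 0.09 (SE 0.18; adjusted p = 0.914 by edgeR) and 0.22 (SE 0.11) without Ang II replicate 1. Within libraries, Gucy1b1 FPKM was 0.836, 1.27 and 1.19 times that of Gucy1a1 in Ang II hearts, against 1.63, 1.73 and 1.84 times in control hearts. The ratio thus lay lower in every Ang II heart, replicates 2 and 3 included, and this comparison was not tested. Markers of smooth muscle and pericytes, cells known to carry the cyclase, summed to 527, 743 and 722 CPM in Ang II hearts and 676, 794 and 700 CPM in control hearts, with 0 of 8 passing over all genes or at an unadjusted p under 0.05 by edgeR.

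Other genes of cGMP synthesis, action and breakdown had 12 of 12 tested log2 changes below 0, with a median of -0.19, and 0 passed in either direction by edgeR. Below 0 stood 49.1% of all genes tested. Without Ang II replicate 1 the median was -0.22, which also counts Gucy1a2 (-0.54), a gene under the low-count filter with all libraries. In that fit Pde1c and Pde3a, both phosphodiesterase genes, stood above 0, at 0.03 and 0.08. Npr1, the natriuretic peptide receptor that makes cGMP at the membrane, had the smallest p, at 24.5, 19.4 and 21.5 CPM in Ang II hearts and 26.9, 28.9 and 29.0 CPM in control hearts. Its groups did not overlap (log2 change -0.37, SE 0.15; adjusted p = 0.630 by edgeR). Npr2, the related receptor, came next with a log2 change of -0.27 (SE 0.17; adjusted p = 0.756 by edgeR) and -0.13 without Ang II replicate 1. Npr1 was the 1 gene of the list with an unadjusted p under 0.05.

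**Figure D5:**
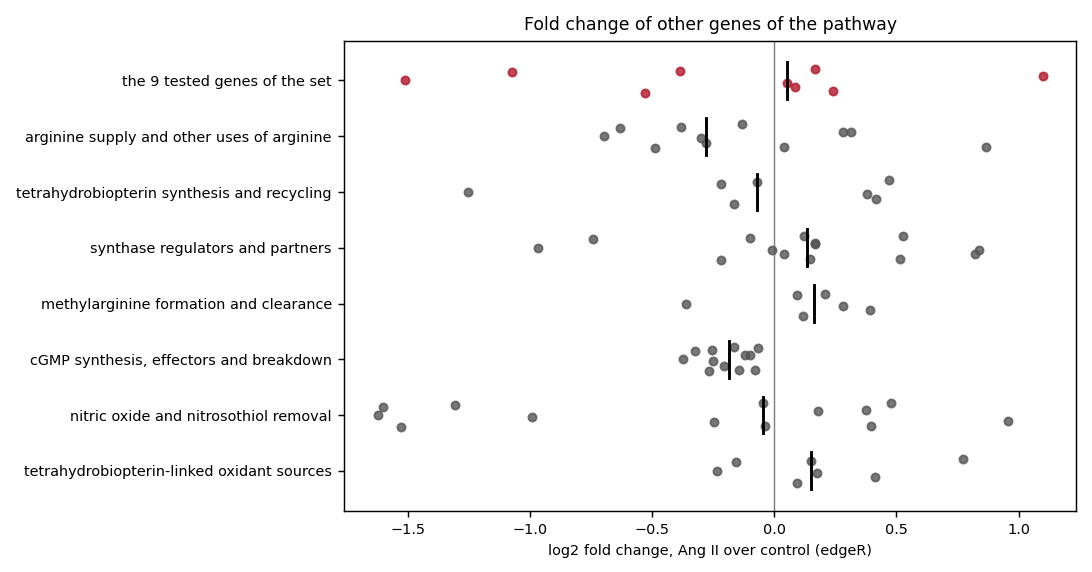
Log2 fold change of Ang II over control hearts (horizontal axis) for the 9 tested genes of the set (top, red) and for each tested gene of 7 lists of other pathway genes (grey), with a bar at each median. The cGMP genes lie between -0.37 and -0.07, and the 4 haemoglobin genes have the lowest values of the removal list.

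Among 14 synthase regulators and partners, all tested, 9 had a log2 change above 0 and 0 passed in either direction by edgeR, where 2 had an unadjusted p under 0.05. The median was 0.13 with all libraries and -0.0043 without Ang II replicate 1. Cav3, the muscle caveolin, stood at 72.2, 40.6 and 44.3 CPM in Ang II hearts and 26.7, 29.7 and 31.6 CPM in control hearts. It lay higher in every Ang II heart, with a log2 change of 0.84 (SE 0.24; adjusted p = 0.520 by edgeR), and 0.53 without Ang II replicate 1.

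Of 13 genes that remove nitric oxide or nitrosothiols, all tested, 0 passed in either direction by edgeR, while DESeq2 called 3, all lower. Unadjusted edgeR p-values under 0.05 were found for 2 higher genes and 4 lower ones, the lower being the 4 haemoglobin genes. The higher included Mb, the muscle haem protein myoglobin, named after its values were seen, at 9143 ± 3145 CPM in Ang II hearts and 4711 ± 1837 CPM in control hearts (SD, n = 3 each). Its log2 change was 0.96 (SE 0.36; adjusted p = 0.627 by edgeR), and 0.64 without Ang II replicate 1. Hba-a2 stood at 111 ± 3.34 CPM in Ang II hearts and 336 ± 149 CPM in control hearts, and Hbb-bt at 65.8 ± 7.53 CPM in Ang II hearts and 202 ± 92.1 CPM in control hearts (SD, n = 3 each). Their log2 changes were -1.60 (SE 0.33; adjusted p = 0.343 by edgeR) and -1.62 (SE 0.35; adjusted p = 0.365 by edgeR). Haemoglobin and myoglobin are both known to scavenge nitric oxide. The 4 haemoglobin genes are also 4 of the 6 red blood cell markers summed above, so these values and that sum are not independent. Among 7 genes of oxidant sources 0 passed in either direction by edgeR, adjusted or not, and the median was 0.15 with all libraries and -0.22 without Ang II replicate 1. Nox4, an oxidase of vessel and heart cells, stood at 0.901 ± 0.0258 CPM in Ang II hearts and 0.527 ± 0.0839 CPM in control hearts (SD, n = 3 each; log2 change 0.77, SE 0.33; adjusted p = 0.664 by edgeR). Ncf1, a subunit of the phagocyte oxidase, had a log2 change of 0.41 (SE 0.45; adjusted p = 0.841 by edgeR) and 0.05 without Ang II replicate 1.

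By level per transcript length the order was led by Ddah2 and Nos3 in both groups. In Ang II hearts Ddah2 averaged 8.37 ± 1.72 FPKM and Nos3 6.48 ± 0.775 FPKM, and in control hearts Nos3 averaged 8.25 ± 1.61 FPKM and Ddah2 7.39 ± 0.538 FPKM (SD, n = 3 each). Their ranges overlapped in each group, so neither leads beyond the spread. Gucy1b1, Gucy1a1 and Nos2 followed, at 2.10 ± 0.949, 1.84 ± 0.553 and 1.26 ± 0.236 FPKM in Ang II hearts, with each overlapping its neighbour. In control hearts they stood at 2.86 ± 0.594, 1.65 ± 0.312 and 2.56 ± 0.424 FPKM, and there Nos2 lay above Gucy1a1 in all 3 hearts. Gch1 and Ddah1 averaged 0.923 ± 0.0610 and 0.778 ± 0.0715 FPKM in Ang II hearts, where their ranges did not overlap, and 0.778 ± 0.241 and 0.742 ± 0.219 FPKM in control hearts, where they did. Arg1 averaged 0.144 ± 0.0789 FPKM in Ang II hearts and 0.381 ± 0.226 FPKM in control hearts. Arg2 and Nos1 closed the order in both groups, under 0.10 FPKM in every heart.

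By the KEGG terms in the deposited table, the 3 synthases and both arginases share arginine biosynthesis, and Nos3, Gucy1a1 and Gucy1b1 share cGMP-PKG signalling. Of 15 tested genes of the first term, 8 had a log2 change above 0 and 7 below, with a median of 0.06 with all libraries and -0.12 without Ang II replicate 1. Of 138 tested genes of the second, 55 were above 0 and 83 below, with a median of -0.07 with all libraries and 0.02 without Ang II replicate 1. With all libraries edgeR called 0 genes of either term. The unadjusted p was then under 0.05 for 1 higher and 2 lower genes of the first term. For the second term it was under 0.05 for 2 higher and 7 lower genes. Without Ang II replicate 1 edgeR called 1 gene of the first term and 2 of the second. The 2 lower genes of the first term were Nos2 and Nos3 themselves, and its 1 call was Nos2. Nos3 is also among the 7 lower genes of the second, so these counts are not separate from the set.

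Genes whose log2 CPM followed the set most closely over the 6 libraries were found by Pearson's r among up to 12967 genes with a mean of at least 1 CPM, as a description over 6 points that share the group difference and library scaling. For Nos2 they were Lin54 (r = 0.998), Chpf2 and Asap3 (both 0.994). For Nos3 they were Tnxb (0.997), Spata13 (0.994) and Top3b (0.993). For Gucy1b1 they were Trim39 (0.998), Zfp62 (0.997) and L1cam (0.996). The closest gene to Gucy1a1 was Tmem184c, to Gch1 Tmem191c, to Ddah1 Rnaseh2a, to Ddah2 the pseudogene Rpl36-ps12, to Arg1 Mbp and to Nos1 Mapkapk5, with r from 0.988 to 0.999.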

How the data were processed

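Poly(A) RNA of 3 Ang II and 3 control hearts was sequenced with paired ends; per the labels' protocols, 10 µg of total RNA with an integrity number above 7 was used and inserts averaged 300 ± 50 bp. Per the submitters' processing notes the tools were StringTie 1.3.0, HISAT2 2.0 and Bowtie 0.12.2; their roles are not given in the sources used here. Those notes give mm8 as build. Coordinates nevertheless equalled GRCm38 (GENCODE M21) for 94.2% of the 55141 IDs in both, and for 9 of the 10 genes; for Nos1 the end differs. The authors deposited FPKM, with 0.0001 standing for 0, and an estimated count per gene and library in whole numbers, which are not raw read counts.

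Counts were tested with edgeR 4.0.16 in R 4.3.3 (quasi-likelihood, TMM, filterByExpr, two-sided, Benjamini-Hochberg over all genes tested, threshold 0.05). SEs were derived from the log2 change and the test statistic. DESeq2 1.42.0 and limma 3.58.1, on log2(FPKM + 0.5) with at least 0.5 FPKM in 3 libraries, were run beside it, and the code was tested on simulated data. Figures used matplotlib 3.10.9.

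The members, lists and tests were chosen with earlier results of these data known. Named genes are the members, the 2 of each list with the smallest p, and the genes most like each member. A gene that this rule names is not reported here. Agxt2, Pde1c, Pde3a, Mb, Carm1, Pde2a, Cav1, Adgre1, Lyz2 and Gucy1a2 fall outside the rule and were named after their values were seen. The same holds for the markers Chat, Th, S100a8, S100a9, Mmp8, Ltf, Egfl7 and Cdh5. The series' design text gives 3 mice per group. Libraries of a group were not duplicates: their chi-square per degree of freedom ran from 34.1 to 482. Alternatives covered scaling, filters, tools, pseudocounts, a replicate block and each library left out.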

Additional observations from a re-analysis of the deposited data

How the results depend on the processing

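With all 6 libraries edgeR called 6 of 16759 genes. It called 12 with no low-count filter, 188 were called by DESeq2, and limma on FPKM called 3, 2 and 3 with pseudocounts of 0.5, 0.1 and 1 and 1 with no filter. Leaving out each library in turn gave 0 to 129 calls, the 129 without Ang II replicate 1 and 2 without Ang II replicate 2. Where the count was 0, unadjusted p-values under 0.05 numbered 1114 (Ang II replicate 3 left out) and 893, 987 and 851 (control replicates 1, 2 and 3 left out). Of the 10 genes described, 0 were called with all libraries by edgeR, and 1, Nos2, by DESeq2 and without Ang II replicate 1; with each library left out the count ran from 0 to 1. Other pathway genes gave 0 calls with all libraries and with each library left out. Signs turned in 4 of 138 comparisons of a gene with an alternative: Ddah1 gave -0.182 and Ddah2 -0.179 without Ang II replicate 1, Ddah1 -0.154 without control replicate 3, and Gucy1a1 -0.0043 without Ang II replicate 3; the cause was not tested. With each library left out, Ddah1 ran from -0.182 to 0.167, Ddah2 from -0.179 to 0.359 and Gucy1a1 from -0.0043 to 0.218. Scaling alternatives moved the median of all genes by less than 0.1. The log2 change of Nos2 ran from -1.14 to -0.656 and that of Nos3 from -0.420 to -0.297 over all alternatives.

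With the replicate number as a block edgeR called 0 genes, 1104 of 16759 at an unadjusted p under 0.05, and 0 of the genes described. The labels do not pair the hearts, and same-numbered hearts deviated together only weakly (r = 0.078, 0.112 and -0.037), so the numbers were not taken as pairs. As a hint from the data the other way, 4 of 6 libraries correlated best with their own number. Of the genes described, Nos1, Arg1 and Arg2 rest on fewer than 100 counts per library. Among other pathway genes named, Pcbd1 and Nox4 were also low, at no more than 0.919 and 0.920 CPM in any library.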

Other observations

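Single libraries went far from the rest in 3 pathway genes, chosen after their values were seen. Carm1, an arginine methyltransferase gene, stood at 2.25, 38.2 and 39.3 CPM in Ang II hearts and 35.3, 29.8 and 37.6 CPM in control hearts. Pde2a, a cGMP-activated phosphodiesterase gene, stood at 71.2, 45.3 and 1.36 CPM in Ang II hearts and 65.2, 40.8 and 34.5 CPM in control hearts. Cav1, the caveolin that binds the endothelial synthase, stood at 11.8, 41.1 and 44.4 CPM in Ang II hearts and 58.4, 54.3 and 50.3 CPM in control hearts. Its groups did not overlap, and its log2 change was -0.74 with all libraries and -0.34 without Ang II replicate 1 (adjusted p = 0.742 with all libraries by edgeR).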
